A study of Mus musculus with 21 samples.

Results

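The genes described here encode alpha subunits of heterotrimeric G proteins: Gnas, Gnai1, Gnai2, Gnai3, Gnaq, Gna11, Gna12, Gna13, Gna14 and Gna15. They were chosen by name from the table of gene counts, and all 10 were found among its 23713 genes. RNA was sequenced from tail-skin keratinocytes, the epithelial cells of the epidermis, of mice with basal cell carcinoma (BCC) and of control mice without tumours (Con), with 3 Con and 4 BCC libraries in each of 3 models. The models are called SmoM2, sampled 29 days after tumour induction, Gnas-eKO, sampled at 42 days, and PKI, sampled at 57 days. SmoM2 is known as an activated form of Smoothened, the membrane protein that switches the Hedgehog pathway on, Gnas-eKO is named for a knockout of Gnas, and PKI is the usual name of a peptide inhibitor of protein kinase A. The labels give no allele, promoter, Cre line, inducing agent, strain, sex or age for any group, nor which exons of Gnas were removed. Each model is its own batch, so model, batch and day cannot be told apart between models, whereas BCC and Con share a batch. In the column headers the SmoM2 BCC animals carry another name prefix (BF) than the SmoM2 Con animals (TJ), so BCC and prefix cannot be told apart in SmoM2. The Gnas-eKO animals all carry TJ and the PKI animals all carry ZQ. What the prefixes stand for is not stated. Each header carries a single animal name that no other library shares, but nothing in the labels states how many mice a library holds. The p-values therefore measure the spread between these libraries.

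A G protein alpha subunit binds GTP when a receptor on the cell surface is activated, lets go of its beta and gamma partners and acts on an effector enzyme. The Gs subunit encoded by Gnas stimulates adenylyl cyclase, which makes cAMP and so activates protein kinase A, while the Gi subunits of Gnai1, Gnai2 and Gnai3 inhibit adenylyl cyclase. Gnaq, Gna11, Gna14 and Gna15 encode the Gq class, which activates phospholipase C beta, and Gna12 and Gna13 encode the G12/13 class. In epidermis, Gs and protein kinase A are known to restrain the Hedgehog pathway, since protein kinase A phosphorylates the GLI transcription factors and favours their repressor forms.

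Gnas is a complex imprinted locus, and a single count per gene pools all of its transcripts. By the GENCODE M21 annotation (build GRCm38), Gnas (ENSMUSG00000027523.19) lies on the plus strand at chr2:174284320-174346744 and has 24 transcripts from 16 start sites. Of its 11186 exonic bases, 8361 (74.7%) lie before the most downstream start that RefSeq lists, from which the common Gs transcript begins. The count therefore includes transcripts such as the one that starts at the far upstream end, which is known to encode the secretory protein Nesp55. The promoters below are the 250 bases before a RefSeq start on GRCm38.p6, read 5′ to 3′ on the strand of the gene. The first and last starts of Gnas are shown because the count spans both, and Gnai1 and Gna15 because their counts changed in more than a single model. Capitals mark GC boxes (GGGCGG on either strand).
Gnas, most upstream start, chr2:174284070-174284319, plus strand: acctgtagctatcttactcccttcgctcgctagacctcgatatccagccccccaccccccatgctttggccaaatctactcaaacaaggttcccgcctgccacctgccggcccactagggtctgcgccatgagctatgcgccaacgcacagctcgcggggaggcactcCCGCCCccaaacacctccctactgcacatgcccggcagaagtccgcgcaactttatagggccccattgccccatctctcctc
Gnas, most downstream start, chr2:174329756-174330005, plus strand: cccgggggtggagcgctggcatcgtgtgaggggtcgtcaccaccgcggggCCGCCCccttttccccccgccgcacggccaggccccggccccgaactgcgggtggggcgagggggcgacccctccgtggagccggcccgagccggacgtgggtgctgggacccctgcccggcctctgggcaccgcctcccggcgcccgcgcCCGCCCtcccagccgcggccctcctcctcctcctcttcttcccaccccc
Gnai1, chr5:18360414-18360663, minus strand: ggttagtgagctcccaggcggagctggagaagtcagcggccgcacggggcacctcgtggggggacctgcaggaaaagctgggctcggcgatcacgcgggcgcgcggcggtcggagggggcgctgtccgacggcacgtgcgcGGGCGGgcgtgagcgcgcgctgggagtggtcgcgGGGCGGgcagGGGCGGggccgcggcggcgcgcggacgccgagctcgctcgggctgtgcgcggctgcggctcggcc
Gna15, chr10:81524226-81524475, minus strand: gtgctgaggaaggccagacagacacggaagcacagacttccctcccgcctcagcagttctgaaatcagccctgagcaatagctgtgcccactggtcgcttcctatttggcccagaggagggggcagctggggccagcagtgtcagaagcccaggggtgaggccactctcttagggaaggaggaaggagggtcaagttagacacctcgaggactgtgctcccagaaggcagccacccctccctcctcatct

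The windows differed in base composition. The window at the most downstream Gnas start was 80% G or C with 29 CG dinucleotides, and that at the most upstream start was 61.6% with 14. The Gnai1 window held 43 CG dinucleotides and 3 GC boxes, and the Gna15 window 4 CG dinucleotides and no GC box. RefSeq promoters were matched for 9 of the 10 genes, and Gnai2 was not among them. The windows of Gnaq and Gna12 each held 4 GC boxes and those of Gna11 and Gna13 2, and those of Gnai3 and Gna14 held none. Over all 32817 RefSeq windows of this length, 32.7% held a GC box. The letters of the cAMP response element (TGACGTCA, the same on both strands, held by 1.55% of all windows) and of a GLI site (GACCACCCA on either strand, held by 0.225%) were in none of the windows of these 9 genes.

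Libraries held 16645858 to 22251132 counts, and each of the 10 genes passed the low-count filter in every model. In all groups the basal keratins Krt5 (7634 to 17853 CPM, counts scaled to the size of the library) and Krt14 (3859 to 15210 CPM) were abundant. Replicate 2 of Gnas-eKO BCC stood apart on the first principal component, at -20.4. The other 3 BCC libraries were at 46.3 to 48.5 and the Gnas-eKO Con libraries at -51.2 to -40.4. The Hedgehog target Gli1 was at 9.65 CPM in replicate 2 and at 153.5 to 281 CPM in those 3 BCC libraries. Replicate 2 thus lay within the Gli1 range of the Gnas-eKO Con libraries, 4.75 to 9.96 CPM. Replicate 3 of Gnas-eKO BCC had 8.53% of its counts in mitochondrial genes, against 1.98% to 3.51% in the other 20 libraries, and it had the lowest level of the 7 libraries of its model for 9 of the 10 genes, Gnai3 being the exception.

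Compared per kilobase of the union of exons over the 9 Con libraries, the Gi genes were the most abundant. Gnai3 stood first at 86.4 ± 6.95 CPM per kb (SD, n = 9), and its libraries did not overlap with those of the next gene. Gnai1 at 42.2 ± 5.32 CPM per kb and Gnai2 at 42.2 ± 2.27 CPM per kb overlapped with each other and lay above all the rest. Gna13 (22.4 ± 0.884 CPM per kb), Gna12 (19.5 ± 2.08), Gnas (18.2 ± 3.09), Gna11 (17.2 ± 1.13) and Gna15 (16.1 ± 1.99) formed a run in which each gene overlapped with its neighbour. Gnaq, at 7.77 ± 0.712 CPM per kb, and Gna14, at 4.14 ± 0.898 CPM per kb, were lower than these and did not overlap with their neighbours. The place of Gnas rests on the length used. Over its longest annotated transcript of 3947 bases its level was 51.6 CPM per kb, rank 3 of the 10. It then lay above Gnai1 (42.2 CPM per kb, rank 4), and Gnai2 moved to 72.0 CPM per kb. As 74.7% of the exonic bases of Gnas lie before the start of the common Gs transcript, its level per length depends on which transcripts were counted. Measured as CPM without regard to length, the 10 genes together summed to 1165 ± 9.86 CPM (SD, n = 3) in the Con and 1210 ± 46.7 CPM (n = 4) in the BCC libraries of SmoM2. The sums were 1170 ± 23.4 and 1218 ± 23.0 CPM for PKI, and 1129 ± 18.4 and 972.5 ± 136 CPM for Gnas-eKO, the last being 1033 ± 76.9 CPM without BCC replicate 3 (n = 3).

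**Figure D1:**
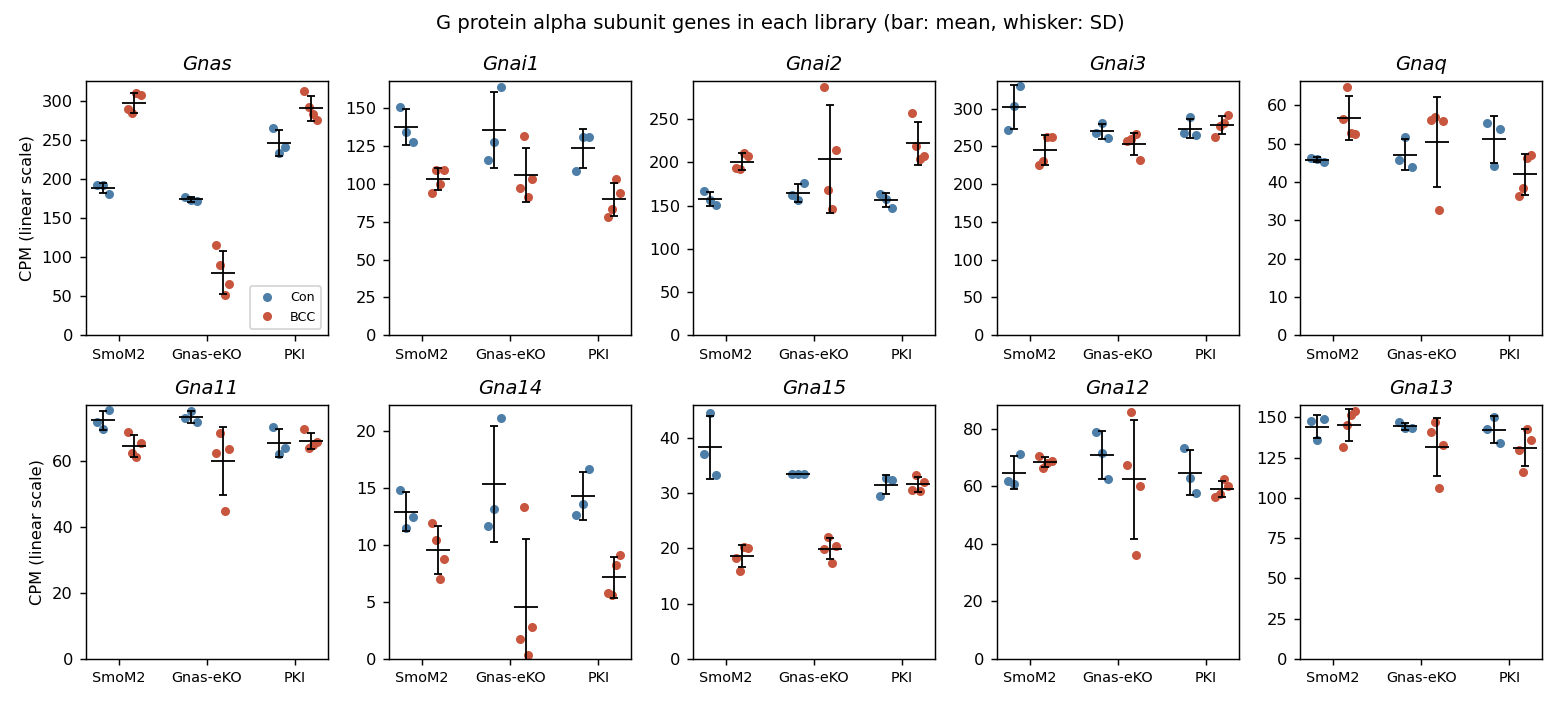
Level of each alpha subunit gene in every library, in CPM on a linear axis from 0, with 3 Con (blue) and 4 BCC (red) libraries per model. Bars give the mean and whiskers the SD (the whisker of Gna14 in Gnas-eKO BCC is cut at 0). Gnas lies above Con in SmoM2 BCC and below Con in Gnas-eKO BCC, and Gna15 lies below Con in both of these models but not in PKI.

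Counts of genes that passed the test (edgeR's quasi-likelihood test within each model, Benjamini-Hochberg adjusted p under 0.05 over all genes tested) give the background for these 10. In SmoM2, 6 of the 10 passed, against 29.7% of all 16370 genes tested: Gnas, Gnai2 and Gnaq were higher in BCC, where 16.2% of all genes were, and Gnai1, Gnai3 and Gna15 were lower, where 13.5% were. In PKI, 4 of the 10 passed, against 34.5% of 16397 genes: Gnas and Gnai2 were higher (18.7% of all genes) and Gnai1 and Gna14 lower (15.8%). Without PKI Con replicate 2 or 3, 2 of the 10 passed, with 4057 and 4201 genes passing in all in place of 5653, and in the fit of all 21 libraries 2 of the 10 passed, with 5188 genes. In Gnas-eKO, Gna15 alone passed, in the lower direction, against 1.63% of 16409 genes in either direction, 1.46% higher and 0.165% lower. Without Gnas-eKO BCC replicate 2, 1910 genes passed there in place of 267, and 3 of the 10 did: Gnas, Gna14 and Gna15. Without Con replicate 1, 2 or 3, 0, 0 and 4 genes passed, and without BCC replicates 1 and 4, 38 and 59 did, with 0 of the 10 in each of these. The BCC and Con libraries did not overlap for 7 of the 10 in SmoM2 (38.8% of all genes), for Gnas, Gna11 and Gna15 in Gnas-eKO (19.7%) and for 4 in PKI (43.2%). The 10 had a median log2 fold change of -0.06 for SmoM2, -0.05 for PKI and -0.23 for Gnas-eKO, beside 0.0005, -0.0012 and 0.02 over all genes tested.

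**Figure D2:**
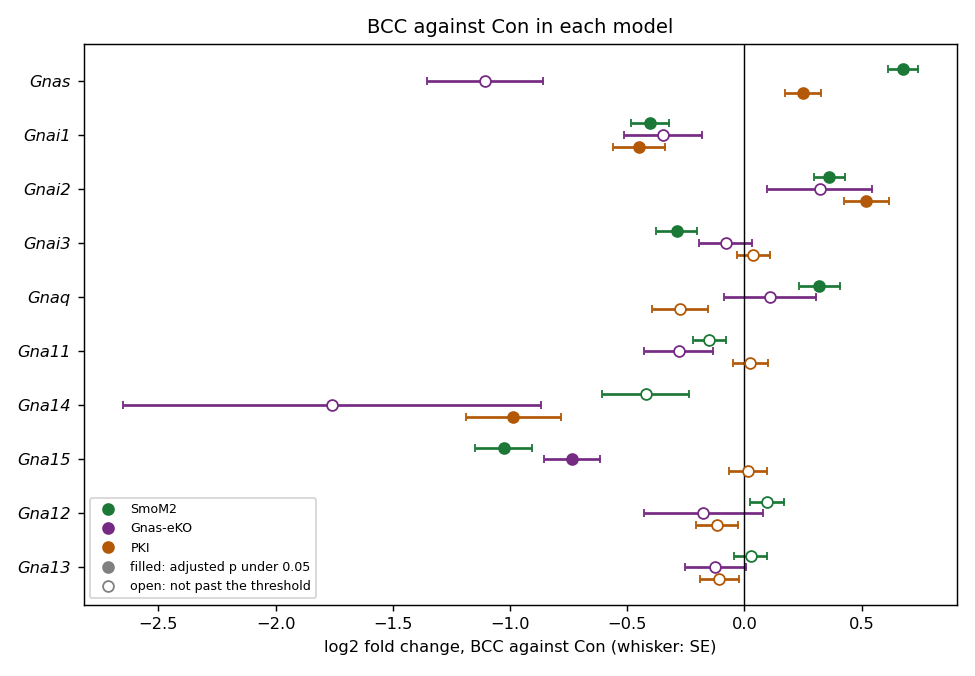
Log2 fold change of BCC against Con for each gene and model, with the standard error as whisker; filled points have an adjusted p under 0.05 (edgeR quasi-likelihood test). The effects on Gnas run from -1.11 in Gnas-eKO to 0.68 in SmoM2, and those on Gna12 and Gna13 are all open points.

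Gnas, the gene that the Gnas-eKO label names, differed in direction between the models. In the Gnas-eKO Con libraries it stood at 178, 174 and 172 CPM, and in the 4 Gnas-eKO BCC libraries at 115, 89.5, 51.2 and 65.6 CPM. Every BCC library lay below every Con library, and the 4 BCC libraries held 66.0%, 51.3%, 29.3% and 37.6% of the Con mean, so Gnas RNA was lower in each but remained in all. The log2 fold change was -1.11 ± 0.25 (SE), with an adjusted p of 0.0647 in edgeR's quasi-likelihood test, which missed the threshold. Without BCC replicate 2 it was -1.16 with an adjusted p of 0.0345, and without BCC replicate 3 it was -0.94 with an adjusted p of 0.0609. The adjusted p was 0.230, 0.235 and 0.199 without Con replicates 1, 2 and 3, and 0.0607 and 0.1895 without BCC replicates 1 and 4. Of the other settings, the fit of all 21 libraries together (adjusted p 0.00022) and DESeq2's Wald test (adjusted p 0.00137) put it past the threshold, while DESeq2's size factors, no filter on low counts and limma on the authors' normalized values did not (adjusted p 0.0545 to 0.0656). The count is a single value for the whole gene, so its exons cannot be read apart. In bulk RNA, fewer cells of a type and less RNA per cell cannot be told apart, here and for every gene below. Ptch1, a Hedgehog target read beside it, was at 30.0 to 39.0 CPM in these Con libraries and at 933, 270.5, 315 and 827 CPM in BCC replicates 1 to 4. Its log2 fold change was 4.14 ± 0.51 with an adjusted p of 0.0172. No gene, Ptch1 included, passed in Gnas-eKO without Con replicate 1 or without Con replicate 2. The Hedgehog target Gli1 overlapped between the groups and did not pass, at 4.67 ± 1.04 (adjusted p 0.0715).

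In SmoM2, Gnas rose. It was at 192.6, 192.6 and 181 CPM in Con and at 290.3, 285, 310.5 and 308 CPM in BCC. All BCC libraries lay above all Con libraries, and the log2 fold change was 0.68 ± 0.06 (adjusted p 5.5e-05), a 1.60-fold difference. In PKI the Con libraries held 266, 234 and 242 CPM and the BCC libraries 313, 292, 284 and 276 CPM. The PKI groups did not overlap either, but their distance was smaller, at a log2 fold change of 0.25 ± 0.08 (adjusted p 0.0311). That call was lost without Con replicate 2 (adjusted p 0.122), Con replicate 3 (0.101), BCC replicate 1 (0.0837) or BCC replicate 2 (0.0717), and in the fit of all 21 libraries (0.309). The 3 PKI Con libraries were higher in Gnas than the 6 Con libraries of the other models, which were at 172 to 193 CPM. Model, batch, day and the name prefix of the animals cannot be told apart in that difference.

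The BCC effects on Gnas were compared between models by an interaction test on the libraries of both. Gnas is the gene that the Gnas-eKO label names, so BCC and the knockout itself cannot be told apart in comparisons with Gnas-eKO. The effect in Gnas-eKO was lower than that in SmoM2 by 1.78 ± 0.28 on the log2 scale (adjusted p 0.0170), and Gnas was the single one of the 10 among the 0.175% of genes that passed in that comparison. Without SmoM2 Con replicate 2 or 3, or without Gnas-eKO Con replicate 1, 2 or 3, the adjusted p was 0.074, 0.0600, 0.0509, 0.0554 and 0.0531. The effect in PKI was higher than that in Gnas-eKO by 1.36 ± 0.28 (adjusted p 0.0111), where 9.06% of all genes passed and 2 of the 10 did, Gnas and Gna15. The effect in PKI was lower than that in SmoM2, with a difference of -0.42 ± 0.09 (adjusted p 0.00506), where 24.9% of all genes passed and 4 of the 10 did: Gnas, Gnai3, Gnaq and Gna15. In the fit of all 21 libraries that PKI difference did not pass (adjusted p 0.236).

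**Figure D3:**
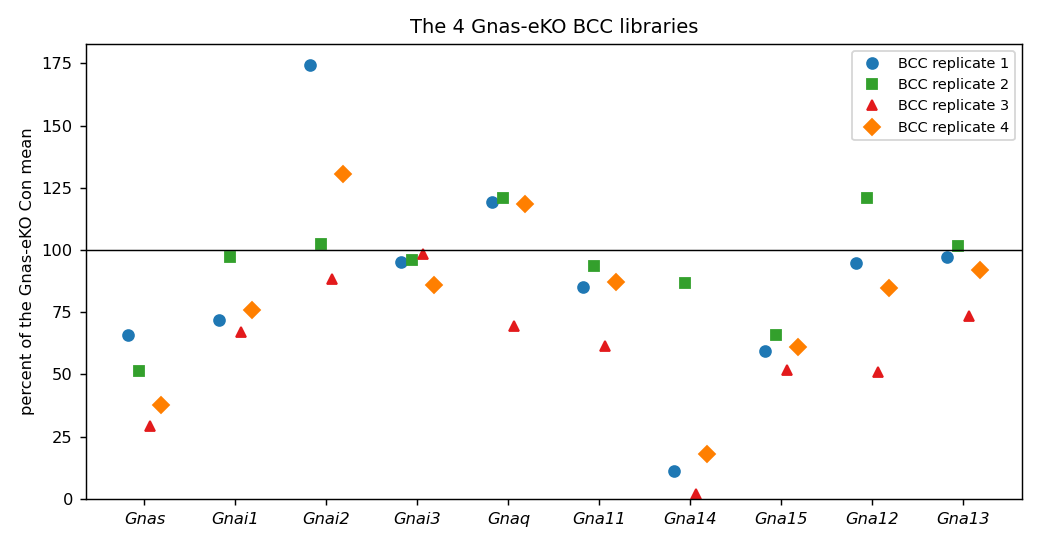
Each of the 4 Gnas-eKO BCC libraries as a percentage of the mean of the 3 Gnas-eKO Con libraries, on a linear axis from 0, for the 10 genes. Gnas lies between 29.3% and 66.0% and Gna15 between 51.8% and 66.1% in all 4, and Gna14 lies at 86.9% in replicate 2 but at 2.09% to 17.9% in the others.

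Gi genes changed in opposite directions. Gnai2 stood at 166, 157 and 150.1 CPM in SmoM2 Con and at 193, 192, 211 and 207 CPM in SmoM2 BCC. It was at 163, 158 and 147 CPM in PKI Con and at 258, 219, 203.5 and 208 CPM in PKI BCC. In both models all BCC libraries were above all Con libraries, and Gnai2 rose, by 0.36 ± 0.07 (log2, adjusted p 0.00272) in SmoM2 and by 0.52 ± 0.09 (adjusted p 0.00321) in PKI. In the fit of all 21 libraries the SmoM2 value had an adjusted p of 0.118. In Gnas-eKO the Con libraries were at 162, 156 and 176 CPM and the BCC libraries at 287, 168, 145.5 and 215 CPM. The Gnas-eKO groups overlapped, and the log2 fold change of 0.32 ± 0.22 did not pass (adjusted p 0.481). With each library left out in turn it ran from 0.11 without BCC replicate 1 (adjusted p 0.773) to 0.46 without BCC replicate 3, and did not pass in any of these. Leukocytes are known to express Gnai2, and their markers moved with it in PKI: all 6 of 6 leukocyte markers tested rose there (18.7% of all genes), and their summed level was 10.9 to 30.3 CPM in Con and 79.7 to 191 CPM in BCC, with Ptprc at 1.92 to 4.36 and 11.0 to 20.0 CPM and no marker at 0. The sum was 18.2 to 22.2 and 13.6 to 27.3 CPM in SmoM2 and 24.8 to 26.8 and 23.1 to 64.7 CPM in Gnas-eKO. Their part in the Gnai2 values was not tested.

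Gnai1 moved the other way. It was at 151, 135 and 128 CPM in SmoM2 Con and at 94.2, 109.5, 100.0 and 109 CPM in BCC. In PKI it was at 109, 131 and 131 CPM in Con and at 78.5, 83.4, 103 and 94.2 CPM in BCC. Con and BCC libraries did not overlap in either model, and Gnai1 fell by 0.40 ± 0.08 on the log2 scale in SmoM2 (adjusted p 0.00454) and by 0.45 ± 0.11 in PKI (adjusted p 0.0127). The PKI call was lost without Con replicate 2 (adjusted p 0.0572) or Con replicate 3 (0.0544). In Gnas-eKO, with 116, 128 and 164 CPM in Con and 97.4, 132, 91.2 and 103 CPM in BCC, the groups overlapped and the change of -0.35 ± 0.17 did not pass (adjusted p 0.297). With each library left out in turn it ran from -0.47 without BCC replicate 2 to -0.20 without Con replicate 3 (adjusted p 0.648), and did not pass in any of these.

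Gnai3 was the most abundant of the 10 per length. It was lower in SmoM2 BCC, at 225, 230.1, 262 and 262 CPM against 272, 304 and 330.3 CPM in Con, by 0.29 ± 0.09 on the log2 scale (adjusted p 0.0342). That call did not outlast leaving out Con replicate 2 (adjusted p 0.0965), Con replicate 3 (0.104), BCC replicate 1 (0.0848) or BCC replicate 2 (0.0805). Con and BCC overlapped in the other models, with log2 fold changes of -0.08 ± 0.11 in Gnas-eKO (adjusted p 0.749) and 0.04 ± 0.07 in PKI (adjusted p 0.719). The PKI effect on Gnai3 exceeded the SmoM2 effect by 0.33 ± 0.11 (adjusted p 0.0458), a call lost without SmoM2 Con replicate 2 or 3, SmoM2 BCC replicate 1 or 2, PKI Con replicate 1 or 3, or PKI BCC replicate 2, 3 or 4, with adjusted p of 0.0622 to 0.116. It was also lost in the fit of all 21 libraries (adjusted p 0.0668) and without a filter on low counts (adjusted p 0.0582).

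Among the Gq genes, Gna15 is known from hematopoietic cells and keratinocytes for coupling to many kinds of receptor. With all libraries of a model it had the largest fold change that passed, in SmoM2, close to that of Gna14 in PKI (-0.99 ± 0.20). It was at 37.1, 44.5 and 33.3 CPM in SmoM2 Con and at 18.3, 15.8, 20.2 and 20.1 CPM in BCC. In Gnas-eKO it was at 33.5, 33.4 and 33.4 CPM in Con and at 19.9, 22.1, 17.3 and 20.4 CPM in BCC. All BCC libraries lay below all Con libraries in both models. Gna15 fell by 1.03 ± 0.12 on the log2 scale in SmoM2 (adjusted p 0.000243) and by 0.74 ± 0.12 in Gnas-eKO (adjusted p 0.0308). The Gnas-eKO call was lost without Con replicate 1 (adjusted p 0.166), 2 (0.168) or 3 (0.152), BCC replicate 1 (0.0857) or BCC replicate 4 (0.0916), while the log2 fold change stayed between -0.78 and -0.67. Without BCC replicate 3, whose mitochondrial share was high, it was -0.67 with an adjusted p of 0.0252.

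In PKI, Gna15 was at 29.5, 32.7 and 32.4 CPM in Con and at 30.6, 33.2, 30.4 and 32.0 CPM in BCC. These groups overlapped, with a log2 fold change of 0.01 ± 0.08 (adjusted p 0.908). The difference between models was itself tested: the PKI effect exceeded the SmoM2 effect by 1.04 ± 0.15 (adjusted p 0.000261) and the Gnas-eKO effect by 0.75 ± 0.14 (adjusted p 0.00590). Both differences passed with any single library left out. Thy1, a marker on T cells including those of mouse epidermis, was at 106 to 137 CPM in SmoM2 Con against 41.6 to 55.9 CPM in BCC, at 128 to 135 against 22.6 to 96.7 CPM in Gnas-eKO and at 21.0 to 40.7 against 27.4 to 59.1 CPM in PKI. Thy1 fell in SmoM2 (log2 fold change -1.23 ± 0.12, adjusted p 6.8e-05) and did not pass in Gnas-eKO (adjusted p 0.117) or PKI (adjusted p 0.197). The 4 other T cell markers, Cd3e, Cd3g, Cd3d and Trac, were at or under 6.14 CPM in every library, with none at 0 throughout a group. Trac rose in SmoM2, from 0.216 to 0.574 CPM in Con to 1.30 to 1.61 CPM in BCC, and was at 0.203 to 0.256 and 0.429 to 2.09 CPM in Gnas-eKO (adjusted p 0.0643), and all 4 rose in PKI. Of the list as a whole, 1 of 4 tested was higher and 1 lower in SmoM2 (16.2% and 13.5% of all genes), and 4 of 5 were higher in PKI (18.7%). The summed list was 106.7 to 138 CPM in Con and 45.1 to 58.8 CPM in BCC of SmoM2, 130.2 to 138 and 26.7 to 98.7 CPM for Gnas-eKO, and 23.8 to 48.0 and 36.5 to 77.4 CPM for PKI. The part of these cells in the Gna15 values was not tested.

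Gna14, the least abundant of the 10 per length, fell in PKI. Its PKI Con libraries held 12.7, 13.6 and 16.7 CPM and its PKI BCC libraries 5.75, 5.58, 8.23 and 9.16 CPM, without overlap. The log2 fold change was -0.99 ± 0.20 (adjusted p 0.00539; 0.241 in the fit of all 21 libraries). In Gnas-eKO the Con libraries held 11.7, 13.2 and 21.2 CPM and the BCC libraries 1.71, 13.4, 0.321 and 2.76 CPM, from 37, 249, 6 and 57 counts. Replicates 1, 3 and 4 were far below Con and replicate 2 was within the Con range. The log2 fold change was -1.76 ± 0.89 (adjusted p 0.321), and -3.23 with an adjusted p of 0.0128 without replicate 2, the library that also stood apart on the first component. In SmoM2, with 11.5 to 14.9 CPM in Con and 7.04 to 12.0 CPM in BCC, the change of -0.42 ± 0.18 did not pass (adjusted p 0.118).

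Gnaq, which gives the Gq class its name, rose in SmoM2. It was at 46.3, 46.1 and 45.2 CPM in Con and at 56.6, 64.8, 52.7 and 52.5 CPM in BCC, without overlap, and rose by 0.32 ± 0.09 on the log2 scale (adjusted p 0.0207). Without Con replicate 2 or 3 the adjusted p was 0.0628 and 0.0529, and in the fit of all 21 libraries it was 0.171. In PKI it was at 44.2 to 55.5 CPM in Con and 36.5 to 47.0 CPM in BCC, an overlapping difference of -0.27 ± 0.12 (adjusted p 0.107). The PKI effect was lower than the SmoM2 effect, by a difference of -0.59 ± 0.16 (adjusted p 0.0130; 0.0669 in the fit of all 21 libraries). In Gnas-eKO the BCC libraries were at 56.2, 57.0, 32.7 and 55.9 CPM against 44.0 to 51.7 CPM in Con, and replicate 3 was the single low library. The log2 fold change there was 0.11 ± 0.20 (adjusted p 0.810), and 0.27 (adjusted p 0.133) without that library. Gna11, the closest relative of Gnaq, did not pass in any model, with log2 fold changes of -0.15 ± 0.07 for SmoM2, 0.02 ± 0.07 for PKI and -0.28 ± 0.15 for Gnas-eKO (-0.16 without BCC replicate 3), although its SmoM2 and Gnas-eKO groups did not overlap.

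Gna12 and Gna13, the G12/13 class, did not pass in any model. Gna13 was at 134 to 150.5 CPM in the 9 Con libraries and at 106 to 154 CPM in the 12 BCC libraries, with log2 fold changes of 0.03 ± 0.07 for SmoM2, -0.11 ± 0.08 for PKI and -0.12 ± 0.13 for Gnas-eKO (-0.03 without BCC replicate 3). Gna12 had log2 fold changes of 0.10 ± 0.07, -0.12 ± 0.09 and -0.18 ± 0.25 in the same order, the last being 0.02 without Gnas-eKO BCC replicate 3. Its lowest value, 36.1 CPM, came from Gnas-eKO BCC replicate 3, and the other 20 libraries were at 56.2 to 85.8 CPM. Part of the exonic bases of Gna12 (13.3%) is shared with Amz1, which lies on the opposite strand and reached at most 2.88 CPM, and 2.35% of those of Gna13 with Gm11696, at most 1.47 CPM. For Gnas the share with Gm20721 on the opposite strand was 13.1%, with at most 0.271 CPM, and 8.83% of its exonic bases overlap Nespas, an antisense gene whose level was not analysed here. The sources used here do not state whether counting used the strand, so reads of such pairs could not be separated for certain.

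As a share of the summed CPM per kb of the 10 genes, the Gs class held 5.96% ± 0.275 (SD, n = 3) in the Con and 10.0% ± 0.177 (n = 4) in the BCC libraries of SmoM2. It held 8.16% ± 0.609 and 9.44% ± 0.567 in those of PKI, and 5.69% ± 0.236 and 2.88% ± 0.700 in those of Gnas-eKO. The Gi class, at 60.3% to 67.8% on average, held the majority in every group, and its share was highest in Gnas-eKO BCC (63.3% to 72.7%). With the longest transcript as the length, the Gs share was 13.6% and 21.1% for SmoM2, 18.0% and 19.9% for PKI, and 13.0% and 6.61% for Gnas-eKO. With the union of exons as the length, Con and BCC did not overlap in their Gs share in any of the 3 models. With the longest transcript the PKI groups overlapped, at 16.9% to 19.2% in Con and 18.9% to 20.7% in BCC. The Gnas-eKO BCC shares without replicate 3 were 3.09% ± 0.673 for Gs and 66.2% ± 2.61 for Gi (n = 3). A lower share of a class raises the others by construction, so these shares are given as a description.

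**Figure D4:**
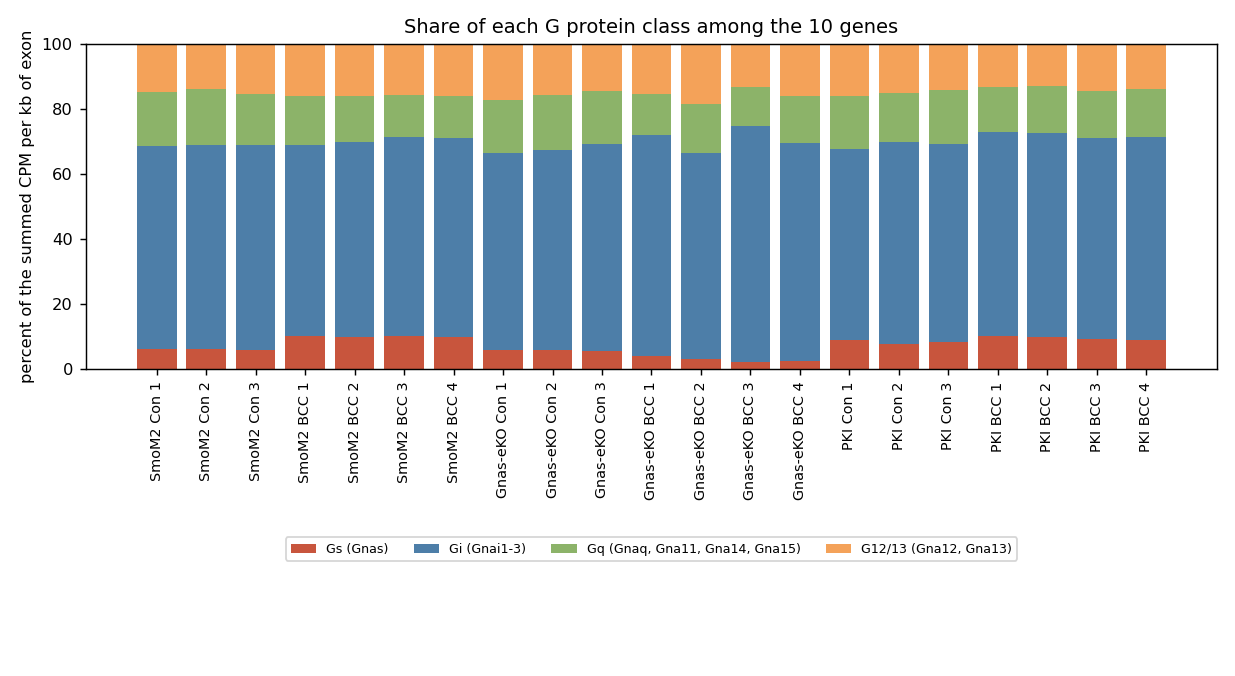
Share of the Gs, Gi, Gq and G12/13 classes in the summed CPM per kb of exon of the 10 genes, in percent, for each of the 21 libraries (bars start at 0 and end at 100). The Gs share is 9.80% to 10.2% in SmoM2 BCC and 2.23% to 3.79% in Gnas-eKO BCC.

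The partners and effectors of these subunits were read from lists of 95 genes, of which 83 were in the count table. In SmoM2, 18 of 54 tested were higher and 8 lower in BCC, where 16.2% and 13.5% of all genes were. In PKI, 17 of 57 were higher and 11 lower, where 18.7% and 15.8% of all genes were. In Gnas-eKO 2 of 59 passed, against 1.63% of all genes, both higher: Ptger4, a receptor for prostaglandin E2 that couples to Gs, at 1.92 ± 0.37 (adjusted p 0.0483), and Plcb1, a phospholipase C beta that Gq activates, at 2.84 ± 0.55 (adjusted p 0.0484). Without Gnas-eKO BCC replicate 2, 12 of 56 were higher and 4 lower, where 11.8% of all genes passed. Without BCC replicate 3, 2 of 57 were higher, and Ptger4 had an adjusted p of 0.0598. Without BCC replicate 1 or 4, or any single Con replicate, both calls were lost, with adjusted p of 0.0555 to 0.218 for Ptger4 and 0.113 to 0.218 for Plcb1. Among other alpha subunits, Gnao1, known from neurons, rose in SmoM2 from 1.35 ± 0.211 to 13.5 ± 3.38 CPM, a log2 fold change of 3.34 ± 0.25 (adjusted p 1.4e-05). In Gnas-eKO BCC it was at 7.25, 2.09, 6.74 and 7.16 CPM (log2 fold change 1.90 ± 0.47, adjusted p 0.0848, and 0.00415 without replicate 2), and in PKI BCC at 0.603 to 1.34 CPM.

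Among the beta and gamma partners, Gnb4 and Gnb5 rose in SmoM2 (by 2.60 ± 0.35 and 1.15 ± 0.16) and in PKI (by 1.78 ± 0.35 and 1.38 ± 0.15). The level of Gnb4 was low, with means from 0.634 to 3.81 CPM in SmoM2 and from 0.5765 to 1.98 CPM in PKI. Gnb1, the most abundant beta subunit gene named here, rose by 0.29 ± 0.07 in PKI. Of the gamma genes, 1 of 6 tested was higher and 1 lower in SmoM2 (16.2% and 13.5% of all genes), 3 of 7 were higher and 1 lower in PKI (18.7% and 15.8%), and 0 of 8 passed in Gnas-eKO (1.63%). Gng12 fell in both SmoM2 and PKI, by 0.62 ± 0.08 and 0.76 ± 0.11. Gng7 rose by 0.55 ± 0.13 in SmoM2. Gngt2 (2.26 ± 0.58, from 0.274 to 1.36 CPM), Gng2 (2.22 ± 0.29, from 1.62 to 7.53 CPM) and Gng5 (0.34 ± 0.12) rose in PKI. Of the chaperones and activators, 2 of 6 were higher and 2 lower in SmoM2 (16.2% and 13.5% of all genes), and 1 was higher and 1 lower in PKI (18.7% and 15.8%). In SmoM2, Ccdc88a and Ric8b, which folds Gs, rose by 0.79 ± 0.25 and 0.44 ± 0.12, and Gpsm2 and Ric8a, which folds Gi, Gq and G12/13 alpha subunits, fell by 0.30 ± 0.08 and 0.28 ± 0.07. In PKI, Gpsm3 rose by 2.28 ± 0.48, from 0.9925 to 4.92 CPM, and Gpsm1 fell by 0.98 ± 0.26. Leukocyte markers rose in PKI as given above, and the part of leukocytes in these partner values was not tested. With all libraries Ptger4 passed in all 3 models, with log2 fold changes of 1.23 ± 0.15 in SmoM2 and 1.35 ± 0.25 in PKI. Gpr161, a receptor of the primary cilium that is known to act on the Hedgehog pathway through Gs, rose by 1.02 ± 0.14 in SmoM2. In PKI, Adrb1, Hrh2, Mc5r and Mc1r, all receptors that couple to Gs, were lower, 4 of 11 tested on that list where 15.8% of all genes were. Mc1r is the melanocortin receptor of melanocytes, and melanocyte markers were lower there too, 5 of 6 against the same 15.8%, with a summed level of 167 to 217 CPM in Con and 82.0 to 130.2 CPM in BCC, Pmel at 38.4 to 49.8 and 21.0 to 30.0 CPM, and no marker at 0. In SmoM2 the summed level was 130.5 to 218 and 124 to 178 CPM, and 123 to 190.5 and 136 to 219 CPM for Gnas-eKO. Of the melanocyte markers, 2 of 6 were lower in SmoM2 (13.5% of all genes) and 0 passed in Gnas-eKO. The part of melanocytes in the receptor values was not tested.

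Adenylyl cyclase genes, the effectors of Gs and Gi, were 2 higher and 1 lower of 5 tested in SmoM2 (16.2% and 13.5% of all genes), and 1 higher and 3 lower of 5 in PKI (18.7% and 15.8%), where Adcy6 fell from 49.1 ± 1.13 to 22.9 ± 2.19 CPM (log2 fold change -1.08 ± 0.09, adjusted p 0.000106). The Gq effectors had 4 higher of 7 in SmoM2 (16.2% of all genes), among them Plcb1, from 0.239 ± 0.244 CPM in Con, near the level of 3 counts, to 8.29 ± 1.19 CPM in BCC, and 1 higher of 7 in each of PKI (18.7%) and Gnas-eKO (1.46%). The RGS proteins, which speed the GTP hydrolysis of alpha subunits, had 6 higher and 1 lower of 12 tested in PKI (18.7% and 15.8% of all genes), among them Rgs1, from 0.109 ± 0.0815 CPM in Con, under the level of 3 counts, to 5.80 ± 3.44 CPM in BCC, with the leukocyte markers moving as given above, and 2 higher and 2 lower of 9 in SmoM2 (16.2% and 13.5%), led by Rgs9 at 2.52 ± 0.21. The part of leukocytes in the RGS values was not tested.

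Other cell types could also contribute RNA. The summed fibroblast markers were 15.8 to 43.5 CPM in all Con libraries. In BCC they were 387 to 525 CPM in SmoM2, 94.3 to 579 CPM in Gnas-eKO and 84.4 to 145.1 CPM in PKI. In the same order 2, 1 and 3 of 6 markers passed as higher (16.2%, 1.46% and 18.7% of all genes). The marker Col1a1 was at 1.19 to 1.89 CPM in Con and 1.16 to 3.66 CPM in BCC of SmoM2, where the groups overlapped. It was at 1.62 to 2.07 and 2.57 to 28.9 CPM in Gnas-eKO, and at 0.568 to 5.22 and 5.43 to 17.55 CPM in PKI. Hair follicle markers summed to 1070 to 1827 CPM in Con and 2080 to 6325 CPM in BCC, with 3 of 7 tested higher in SmoM2, 6 of 7 in PKI and 0 of 7 in Gnas-eKO. The basal keratinocyte sum was 28012 to 36436 CPM in Con and 15217 to 30242 CPM in BCC, with 1 of 6 higher and 4 lower in SmoM2 (13.5% of all genes lower), 3 lower in PKI (15.8%) and 0 passing in Gnas-eKO. The suprabasal keratinocyte sum was 23043 to 34789 CPM in Con and 12551 to 27086 CPM in BCC of SmoM2, with 0 of 6 higher and 3 lower. It was 19305 to 27686 and 11767 to 23547 CPM in Gnas-eKO, with 0 passing. In PKI it was 16517 to 31368 and 12224 to 42771 CPM, with 1 higher and 1 lower. Their part in the changes of these 10 genes was not tested.

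The genes whose pattern was most like that of Gnas were found by the Pearson correlation of log2 CPM among 12029 genes, as a description over libraries that share groups and batches. Over the 21 libraries the most alike were Hgs (0.82), Ccdc85c (0.82), Mfhas1 (0.80), Grhl2 (0.79) and Sf3b2 (0.79), and the least alike Cyb5r1 (-0.85), Fkbp3 (-0.84) and Ttll10 (-0.83). Without the 4 Gnas-eKO BCC libraries the values of the first 5 were 0.34, 0.41, 0.51, 0.42 and 0.29, and those of the last 3 were -0.38, -0.58 and -0.71. After taking off each group's mean, the most alike were Sfrp1 (0.91), Chp1 (0.88), Xpr1 (0.86), Efr3a (0.86) and Slc23a2 (0.86), and the least alike Rps10-ps1 (-0.88), Rpl32l (-0.86) and Rpl24 (-0.86), ribosomal protein genes and copies that can share reads with near-identical genes. Without those 4 libraries Sfrp1 stood at 0.73 and the others of the first 5 between 0.03 and 0.45, and Rps10-ps1, Rpl32l and Rpl24 at -0.34, -0.46 and -0.29. Among the other alpha subunits of the 10, Gnai2 followed Gnas most closely within groups, at 0.73, and at 0.71 without those 4 libraries.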

How the data were processed

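RNA of 21 libraries was prepared with a stranded polyA kit, per the labels' protocols. Per the submitters' processing notes, bcl2fastq 2.20, cutadapt 1.18, STAR 2.7.0f, Partek and the build mm10 were used, and the counting tool and its strand setting are not given in the sources used here. The deposited expected counts per gene were rounded to whole numbers. The second deposited table, a signal the authors normalized by TMM, served only an alternative. In edgeR 4.0.16 (R 4.3.3), genes were filtered with filterByExpr, libraries scaled by TMM, and BCC compared with Con in the 7 libraries of each model by the robust quasi-likelihood test, with Benjamini-Hochberg adjustment over all genes and a threshold of 0.05. Differences between models were interaction contrasts on 14 libraries. CPM were computed from TMM-scaled library sizes, at which 3 counts are at most 0.189 CPM; this covers counting error only. Standard errors are the absolute log2 fold change over the square root of F. The fits were tested on simulated data.

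The 10 genes and all gene lists were chosen with earlier results of these data known. Named genes were the 10, genes over their exons, Ptch1, the 5 most and 3 least correlated with Gnas (mean log2 CPM of at least 2, prior count 2) and up to 3 called genes of largest change per list and model. Gli1, Ric8a, Gng5, Mc1r, Ptger4 in PKI and the single cell type markers were named after their values were seen. A result on 1 group of effectors is not reported here. Alternatives were DESeq2 1.42.0 (test and size factors), limma 3.58.1 on the log2 of the authors' values plus 1, no filter, all 21 libraries in 1 fit, the replicate number as a block, each library left out, and another gene length. Partner gene counts of Gnas-eKO without each library, and sums and shares without BCC replicate 2 or 3, were added after seeing the data. Libraries of a group all differed by more than counting noise (chi-square over degrees of freedom from 8.33 up).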

Additional observations from a re-analysis of the deposited data

Results flagged for a closer look

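The effect of BCC on 4 of the 10 genes differed between models by an interaction test, in 7 of 30 tests. Of the 10, 1 passed between Gnas-eKO and SmoM2, where 0.175% of all genes did, 4 between PKI and SmoM2, where 24.9% did, and 2 between PKI and Gnas-eKO, where 9.06% did. For Gnas the effect in Gnas-eKO minus that in SmoM2 was -1.78, the effect in PKI minus that in SmoM2 was -0.42, and the effect in PKI minus that in Gnas-eKO was 1.36. As the Gnas-eKO label names this gene, BCC and the knockout itself cannot be told apart in its differences with Gnas-eKO. For Gna15 the effect in PKI exceeded that in SmoM2 by 1.04 and that in Gnas-eKO by 0.75. For Gnai3 the effect in PKI minus that in SmoM2 was 0.33, and for Gnaq it was -0.59. Model, batch and day cannot be told apart in these differences, nor can the name prefix of the animals.

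Gnaq in Gnas-eKO BCC replicate 3 lay far below the other 3 libraries of its group, with a gap of 0.952 of the group's range. It was 1 of 30 groups of 4 libraries tested for such a gap, of which chance flags about 1 in 20. The same library had the mitochondrial share of 8.53%.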

How the results depend on the processing

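Over alternatives other than leaving out a library, 285 values of single genes kept their direction and side of the threshold, 10 were weaker, 4 were stronger and 1 changed sign. Over leaving out each library in turn these numbers were 569, 31, 4 and 26. In the fit of all 21 libraries, 2644 genes were called in Gnas-eKO, 2 of the 10 among them, and Gnas there was -1.12; 2 of the 10 and 5188 genes were called in PKI, where Gnas was 0.24; 66 genes differed between Gnas-eKO and SmoM2; and 1 of the 10 and 2993 genes differed between PKI and SmoM2. DESeq2's Wald test called 1535 genes in Gnas-eKO, 2 of the 10 among them, with Gnas at -1.11. The cause was not tested.

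Replicate numbers did not pair the libraries: correlations of same-numbered libraries were -0.0867, -0.125 and -0.127 for SmoM2, 0.282, -0.0662 and 0.190 for PKI, and 0.0411, 0.184 and 0.101 for Gnas-eKO. Under the replicate block, 135 genes were called in Gnas-eKO and 925 between PKI and Gnas-eKO, 0 of the 10 were called in Gnas-eKO and between Gnas-eKO and SmoM2, and Gna13 in SmoM2 was -0.0043. There Gnas had an adjusted p of 0.0993 in Gnas-eKO and of 0.0890 for its difference between Gnas-eKO and SmoM2, a call lost, Gna15 in Gnas-eKO also lost its call (0.107), and Gnaq in PKI had 0.0410. For Gna14 the effect in PKI minus that in SmoM2 was -0.73 there and passed (adjusted p 0.0487).

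With each library left out in turn, 0 to 1910 genes (0 without Con replicate 1 or 2, 4 without Con replicate 3, 38 and 59 without BCC replicates 1 and 4, 1910 without BCC replicate 2) and 0 to 3 of the 10 were called in Gnas-eKO, 2 to 4 of the 10 in PKI, 14 to 79 genes and 0 to 1 of the 10 between Gnas-eKO and SmoM2, and 673 to 2512 genes between PKI and Gnas-eKO. Gnas was -1.33 to -0.94 in Gnas-eKO and 0.20 to 0.30 in PKI. Values that changed sign were small: Gna13 in SmoM2 (-0.016 to 0.075), Gna12 in Gnas-eKO (-0.36 to 0.017), and, in PKI, Gna11 (-0.013 to 0.071) and Gna15 (-0.039 to 0.041). Differences that changed sign, Gnas-eKO minus SmoM2, were Gnai1 (-0.068 to 0.22) and Gnai2 (-0.25 to 0.095); PKI minus SmoM2, Gnai1 (-0.13 to 0.017); and PKI minus Gnas-eKO, Gnai1 (-0.25 to 0.020), Gna12 (-0.13 to 0.25) and Gna13 (-0.075 to 0.074). The Gnai3 difference between PKI and SmoM2 lost its call without SmoM2 Con 2 or 3, SmoM2 BCC 1 or 2, PKI Con 1 or 3, or PKI BCC 2, 3 or 4 (adjusted p 0.0622 to 0.116), in the fit of all 21 libraries (0.0668) and without a filter on low counts (0.0582). Gnaq between PKI and Gnas-eKO passed without Gnas-eKO BCC 3 (-0.54, adjusted p 0.0326), and Gna14 there passed without Gnas-eKO BCC 2 (2.25, adjusted p 0.0313).

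Depth limits Gna14 most, with 6 to 415 counts per library.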
